A study of Mus musculus with 6 samples.

Results

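The Krebs cycle enzymes described here are 9 genes in the order of the cycle, *Cs*, *Idh3a*, *Idh3b*, *Idh3g*, *Ogdh*, *Suclg1*, *Sucla2*, *Fh1* and *Mdh2*. They were chosen by gene symbol, and succinate dehydrogenase was left out of the choice. All 9 were among the 46517 genes in the files, and all 9 passed the filter on low values together with 14958 other genes (14967 tested). RNA was measured by RNA-seq in inguinal white adipose tissue (IngWAT), the subcutaneous fat pad of the groin, of mice on a C57Bl6 background fed chow, aged 5 to 9 months per the labels. The 3 floxed samples came from mice with a floxed *Hdac3* gene and no deletion of it. The 3 H3atKO samples came from mice with the same floxed *Hdac3* that also carried the Adipoq-cre transgene, in which the adiponectin promoter drives Cre recombinase in adipocytes, so that the other cells of the fat pad keep *Hdac3*. Each sample was a pool of RNA from 2 or 3 mice of a genotype.

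The Krebs cycle runs in the mitochondrial matrix, where it oxidizes the acetyl group of acetyl-CoA to carbon dioxide and passes the electrons to the respiratory chain as NADH and FADH2. Citrate synthase joins acetyl-CoA to oxaloacetate, isocitrate dehydrogenase and the oxoglutarate dehydrogenase complex release carbon dioxide, succinyl-CoA ligase makes a nucleoside triphosphate, and fumarase and malate dehydrogenase return the carbon to oxaloacetate. White adipocytes also draw citrate out of the cycle for fatty acid synthesis, and brown adipocytes, which are rich in mitochondria, run the cycle at a high rate during thermogenesis.

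In the sample check, *Hdac3*, the targeted gene, had 3139, 3339 and 2709 counts in floxed samples and 666, 413 and 204 in H3atKO samples, in the order of replicates 1 to 3. Its normalized expression was 71.7 ± 7.61 cpm (counts scaled to the TMM-adjusted size of the library, SD, n = 3) in floxed and 20.5 ± 7.28 cpm in H3atKO samples (log2 fold change -1.83, SE 0.32, adjusted *p* = 0.0213). The smallest library held 23865507 counts on genes and the largest 35200685, which puts 3 counts at 0.126 and 0.0852 cpm, and the smallest count of a member was 440. Genes of the mitochondrial genome, none of which is a member, took 9.13% ± 3.26 of the counts in floxed and 32% ± 4.49 in H3atKO samples (SD, n = 3). Over 14922 tested genes with a known GC content, Spearman's rho between GC content and log2 fold change was -0.706. When each gene was centred on its mean over the 6 samples, rho between GC content and the centred log2 values was 0.8, 0.623 and 0.097 in floxed and -0.433, -0.504 and -0.711 in H3atKO samples. An effect of GC content thus ordered the genotypes completely and cannot be told apart from an effect of *Hdac3* deletion that follows it. The fold changes of the members and their partner genes are given below with and without a correction for it. All 6 adipocyte markers of the labelled tissue were detected in every sample, from 15 cpm (*Lep*) to 22051 cpm (*Fabp4*).

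Of the 9 members, *Idh3a* and *Sucla2* were upregulated in H3atKO samples by limma voom at a Benjamini-Hochberg adjusted *p* under 0.05, the rule for a call used throughout. These 2 of 9 stand beside 9.42% of all tested genes called upregulated. No member was called down-regulated by limma voom, edgeR or DESeq2, and none had an unadjusted *p* under 0.05 in that direction by any of these tools, beside 7.07%, 18.4% and 23.2% of all genes called down-regulated. Limma voom with the replicate number as a block did call 2 members down-regulated, *Idh3g* and *Mdh2*, beside 28.7% of all genes. edgeR and DESeq2 each called 3 members upregulated, with *Cs* as the addition, beside 12.8% and 19.6% of all genes. The median log2 fold change of the members was 0.62, and that of all tested genes -0.09. After the GC correction these medians were 0.48 and 0.02. Of the 9 log2 fold changes 7 were above 0 with TMM scaling, but with library sizes alone *Idh3b*, *Ogdh*, *Suclg1* and *Fh1* fell below 0. Library sizes alone put the median of all genes at -0.94, and the members' median lay 0.71 above the median of all genes under both scalings. A change of scaling shifts all genes nearly alike, so it could hardly change this gap. Over the other fits the gap ran from 0.40 without a filter to 0.97 without H3atKO replicate 3, and it was 0.47 with the GC correction.

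Every H3atKO sample lay above every floxed sample for 4 members, *Cs*, *Idh3a*, *Sucla2* and *Fh1*, beside 23.1% of all genes. No member had every H3atKO sample below every floxed sample, beside 28.6% of all genes, and 5 members overlapped between the genotypes. H3atKO replicate 3 was the lowest H3atKO sample for 8 of the 9 members, the exception being *Idh3a*. Floxed replicate 1 was the highest floxed sample for 6 of the 9. Because the tissue was measured in bulk, fewer cells of a type and less RNA per cell cannot be told apart.

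**Figure D1:**
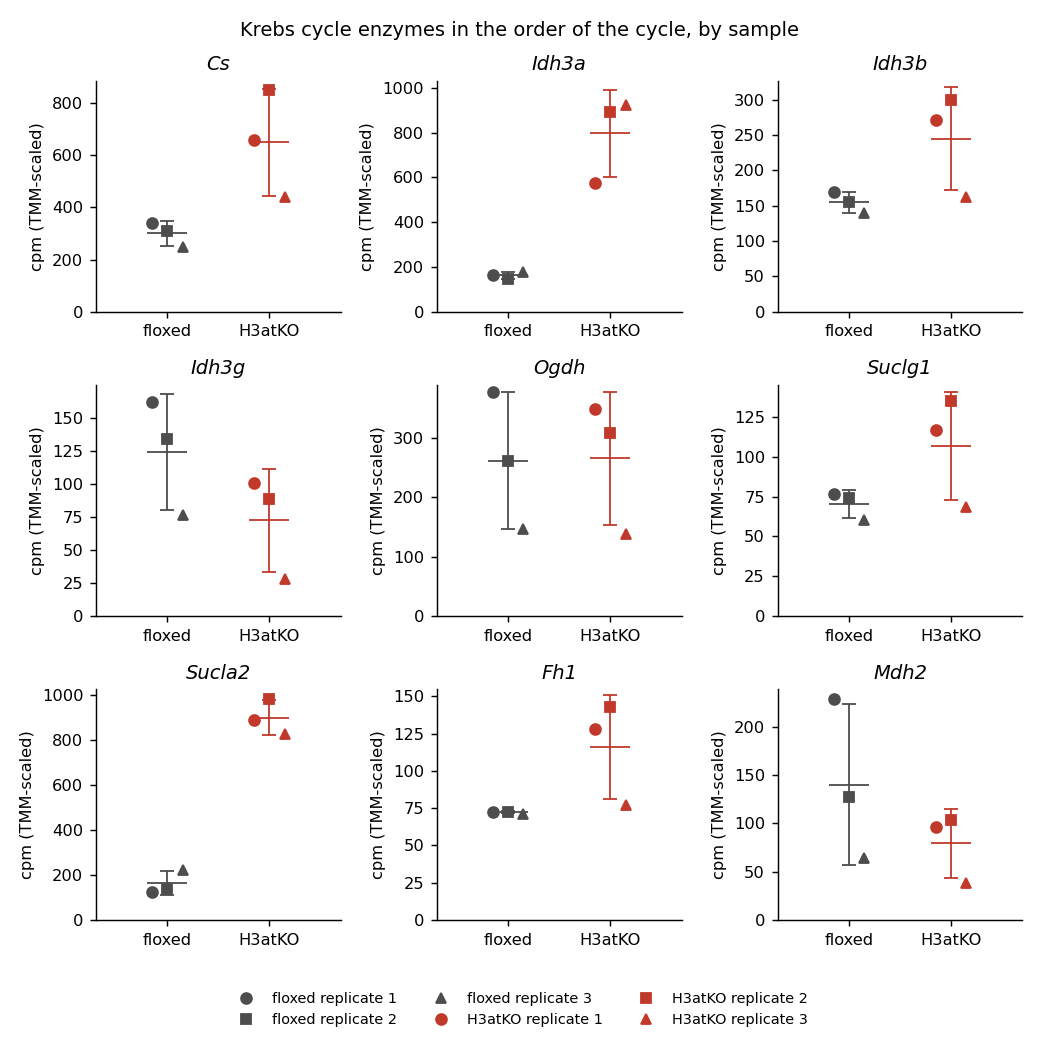
Normalized expression (cpm of the TMM-scaled library, axes from 0) of each member in the 3 floxed (grey) and 3 H3atKO (red) samples, with horizontal lines for the mean and error bars for the SD. The H3atKO samples of *Idh3a* and *Sucla2* stand far above the floxed ones, those of *Ogdh* spread over nearly the same range as the floxed samples, and those of *Mdh2* lie in the lower part of the floxed range or, in replicate 3, below it.

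The entry step is catalysed by citrate synthase. *Cs* lies on chromosome 10 (GRCm38, 128337734 to 128362479, forward strand). It had 341, 311 and 249 cpm in floxed replicates 1 to 3 and 660, 848 and 438 cpm in H3atKO replicates 1 to 3. All H3atKO samples were above all floxed samples, by 2.1-fold in the fit (log2 fold change 1.07, SE 0.30), and the adjusted *p* of 0.0507 missed the threshold in limma voom. edgeR called it (adjusted *p* = 0.0372), as did limma voom with the replicate number as a block (adjusted *p* = 0.00884). With library sizes alone the log2 fold change was 0.22. The GC-corrected value was 0.99 (adjusted *p* = 0.0785).

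The isocitrate dehydrogenase that makes NADH, Idh3, is assembled from a catalytic alpha subunit (*Idh3a*) and from beta (*Idh3b*) and gamma (*Idh3g*) subunits, of which gamma is regulatory. The 3 genes did not move together. *Idh3a*, on chromosome 9 (54586334 to 54604661, forward strand), had 162, 146 and 178 cpm in floxed and 575, 892 and 922 cpm in H3atKO samples, with the genotypes far apart in all samples. It was upregulated 4.84-fold (log2 fold change 2.27, SE 0.26, adjusted *p* = 0.0092), and 1.99 on the log2 scale remained after the GC correction (adjusted *p* = 0.0108). The call was lost without floxed replicate 2 (adjusted *p* = 0.0556), in a fit that called 0.00673% of genes upregulated and 0% down-regulated and 0 of the 9 members.

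*Idh3b*, on chromosome 2 (130279309 to 130284547, reverse strand), had 169, 155 and 140 cpm in floxed and 272, 300 and 162 cpm in H3atKO samples. H3atKO replicates 1 and 2 were above all floxed samples, and H3atKO replicate 3 was among them. The log2 fold change of 0.62 (SE 0.29, adjusted *p* = 0.138) was 0.38 after the GC correction and -0.23 with library sizes alone. *Idh3b* overlaps *Nop56* on the opposite strand, and the strand setting of the counting is not given in the sources used here. *Idh3g*, on the X chromosome (73778963 to 73786897, reverse strand), had 162, 134 and 76.2 cpm in floxed and 101, 88.4 and 27.8 cpm in H3atKO samples. Within each genotype replicate 3 was the lowest, and H3atKO replicates 1 and 2 lay within the floxed range. The log2 fold change was -0.88 (SE 0.52, adjusted *p* = 0.222) and -0.57 after the GC correction (adjusted *p* = 0.418). With the replicate block *Idh3g* was called down-regulated (adjusted *p* = 0.021), and with library sizes alone as well (log2 fold change -1.75, adjusted *p* = 0.0368).

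The balance within the enzyme was compared through ratios of counts per kb of exon within each sample, which do not depend on the scaling of the library. The exon length was that of all annotated exons of a gene joined, which can exceed that of the transcripts expressed. The log2 ratio of *Idh3a* to *Idh3b* was -0.63, -0.65 and -0.22 in floxed samples and 0.51, 1.00 and 1.94 in H3atKO samples. *Idh3b* thus gave more counts per kb than *Idh3a* in every floxed sample and fewer in every H3atKO sample. The ratio was 3.14-fold higher in H3atKO samples (difference of 1.65 on the log2 scale, two-sided exact permutation *p* = 0.1, the smallest that 3 against 3 samples can give), and the difference was 1.60 after the GC correction. The log2 ratio of *Idh3a* to *Idh3g* was -0.91, -0.78 and 0.31 in floxed and 1.60, 2.43 and 4.14 in H3atKO samples, without overlap. That ratio was 9.07-fold higher (difference 3.18 on the log2 scale, two-sided exact permutation *p* = 0.1), and 6-fold higher after the GC correction. Without H3atKO replicate 3 the difference was 2.47 on the log2 scale. As shares of the Idh3 counts per kb, *Idh3a* took 26.5% ± 6.17 in floxed and 61.5% ± 13.5 in H3atKO samples, *Idh3b* 37% ± 2.21 and 28% ± 7.48, and *Idh3g* 36.5% ± 8.28 and 10.5% ± 6 (SD, n = 3).

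**Figure D2:**
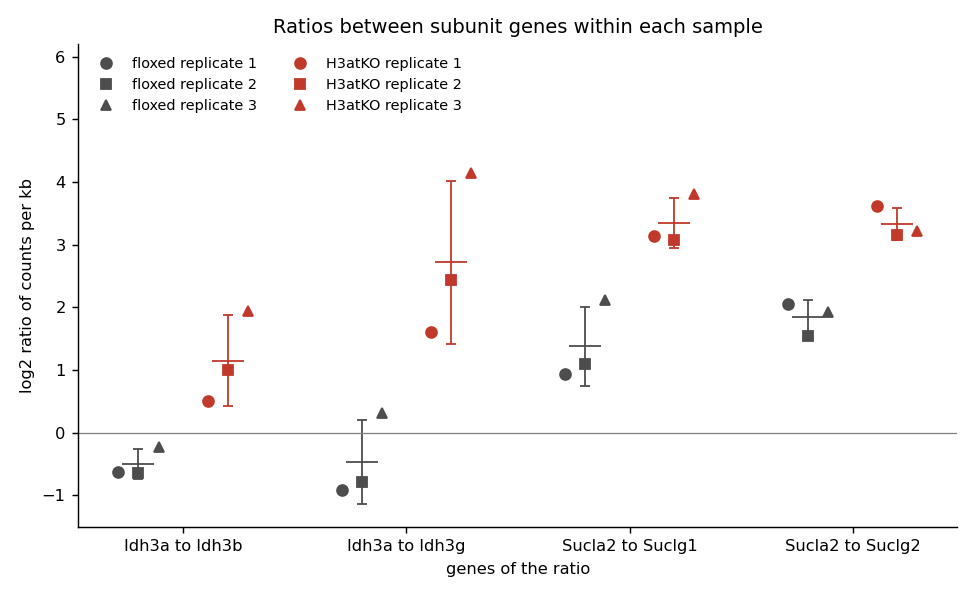
Log2 ratios of counts per kb between subunit genes within each sample, for the 3 floxed (grey) and 3 H3atKO (red) samples, with horizontal lines for the mean and error bars for the SD. In each of the 4 ratios all H3atKO samples lie above all floxed samples.

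The promoters of 8 of the 9 members are in the RefSeq table for GRCm38.p6, all but *Idh3a*. They were searched on both strands for CCGGAAG, the core bound by Ets factors such as GABP (NRF-2), for TCAAGGTCA, bound by estrogen-related receptors, and for GCGCATGCG, bound by NRF-1, all 3 known from nuclear genes of mitochondrial proteins. None of the 3 motifs holds another. The Ets core was found in *Idh3b* and *Idh3g* and in 8.86% of the 32851 promoters of the table. The NRF-1 motif was found in 2 overlapping promoters of the 6 listed for *Ogdh* and in 1.75% of all promoters, and the estrogen-related receptor motif in none of the members' promoters and in 0.423% of all. A match is a description of the letters and no evidence of binding. The promoters of the Idh3 subunit genes with a match are shown with that of *Sucla2*, which has none, on the gene's strand from 250 bases before to 50 bases after the start, with the Ets core or its reverse complement in capitals. They lie at chr2:130284402-130284701 (reverse strand, *Idh3b*), chrX:73786848-73787147 (reverse strand, *Idh3g*) and chr14:73552536-73552835 (forward strand, *Sucla2*). That of *Sucla2* lies inside the bounds of the gene given below, which begin at 73525319, so the sequence before that start was not searched.
Idh3b: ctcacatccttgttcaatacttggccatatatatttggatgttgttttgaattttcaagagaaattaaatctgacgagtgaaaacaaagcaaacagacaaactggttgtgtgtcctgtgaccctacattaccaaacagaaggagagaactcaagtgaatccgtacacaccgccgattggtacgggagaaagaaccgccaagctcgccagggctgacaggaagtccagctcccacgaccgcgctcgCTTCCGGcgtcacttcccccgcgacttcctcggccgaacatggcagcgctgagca
Idh3g: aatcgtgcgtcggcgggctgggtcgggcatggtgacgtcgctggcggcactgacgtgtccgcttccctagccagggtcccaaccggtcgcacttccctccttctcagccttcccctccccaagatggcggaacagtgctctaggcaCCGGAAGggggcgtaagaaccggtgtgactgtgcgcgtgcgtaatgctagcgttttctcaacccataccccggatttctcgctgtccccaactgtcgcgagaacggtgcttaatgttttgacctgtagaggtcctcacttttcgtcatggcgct
Sucla2: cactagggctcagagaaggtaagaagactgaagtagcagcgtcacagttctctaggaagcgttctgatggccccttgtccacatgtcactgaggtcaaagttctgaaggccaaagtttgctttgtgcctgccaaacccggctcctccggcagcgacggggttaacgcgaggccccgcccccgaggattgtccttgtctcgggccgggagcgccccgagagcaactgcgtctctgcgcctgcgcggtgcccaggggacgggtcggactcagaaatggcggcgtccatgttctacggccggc

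The oxoglutarate dehydrogenase complex converts alpha-ketoglutarate to succinyl-CoA and consists of the decarboxylase *Ogdh*, the succinyltransferase *Dlst* and the dehydrogenase *Dld*, which other ketoacid dehydrogenases share. *Ogdh*, on chromosome 11 (6291633 to 6356642, forward strand), had 377, 262 and 146 cpm in floxed and 349, 309 and 139 cpm in H3atKO samples. In both genotypes replicate 1 was the highest and replicate 3 the lowest, and the ranges almost coincided. Its log2 fold change was 0.02 (SE 0.47, adjusted *p* = 0.978), and it ran from -0.35 without floxed replicate 3 to 0.44 without H3atKO replicate 3. With the GC correction it was 0.80 (SE 0.31, adjusted *p* = 0.143), and with block and GC correction combined *Ogdh* was called (log2 fold change 0.79, adjusted *p* = 0.0286).

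The partners of *Ogdh* were called. *Dlst* was at 167 ± 21.7 cpm in floxed and 311 ± 48.5 cpm in H3atKO samples (SD, n = 3, log2 fold change 0.89, SE 0.24, adjusted *p* = 0.0441), and among the fits that left out 1 sample it was called only without floxed replicate 3 (adjusted *p* = 0.0386, highest of the 6 fits 0.151). The call of *Dlst* was also lost with library sizes alone (log2 fold change 0.04, adjusted *p* = 0.916), without a filter (adjusted *p* = 0.0611) and with at least 10 counts in every sample (adjusted *p* = 0.0505). The GC-corrected log2 fold change of *Dlst* was 0.85 (adjusted *p* = 0.0486). *Dld* had 170, 175 and 276 cpm in floxed and 1144, 1534 and 1798 cpm in H3atKO samples, which lay far apart (log2 fold change 2.86, SE 0.30, adjusted *p* = 0.008). It lost the call without floxed replicate 2 (adjusted *p* = 0.0516), and after the GC correction its log2 fold change was 1.83 (adjusted *p* = 0.00943). The 3 genes of the complex differed in GC content, with 52.5% in *Ogdh*, 48.5% in *Dlst* and 40.6% in *Dld*, the reverse of the order of their fold changes.

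Succinyl-CoA ligase pairs an alpha subunit (*Suclg1*) with a beta subunit that makes it form ATP (*Sucla2*) or GTP (*Suclg2*). *Suclg1*, on chromosome 6 (73248382 to 73276911, forward strand), had 76.6, 74.2 and 60.6 cpm in floxed and 117, 135 and 68.8 cpm in H3atKO samples. H3atKO replicate 3 lay within the floxed range. The log2 fold change of 0.56 (SE 0.30, adjusted *p* = 0.186) was 0.06 after the GC correction and -0.30 with library sizes alone. *Sucla2*, on chromosome 14 (73525319 to 73596142, forward strand), had 127, 138 and 225 cpm in floxed and 889, 983 and 828 cpm in H3atKO samples, so that the lowest H3atKO sample was well above the highest floxed one. It was upregulated 5.68-fold (log2 fold change 2.51, SE 0.28, adjusted *p* = 0.00899). The GC correction lowered the log2 fold change to 1.73 (adjusted *p* = 0.0124), below the 1.99 of *Idh3a*, and without floxed replicate 2 the call was lost (adjusted *p* = 0.053).

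*Suclg2*, which is no member, was at 53 ± 16.7 cpm in floxed and 105 ± 22 cpm in H3atKO samples (SD, n = 3, log2 fold change 1.02, SE 0.31, adjusted *p* = 0.0585, with the replicate block 0.00953), and 21.8% of its 50-base stretches also occur in *Gm15163*, so that its counts are uncertain. The GC correction left *Suclg2* at 0.42 on the log2 scale (adjusted *p* = 0.255). The log2 ratio of *Sucla2* to *Suclg1* per kb was 0.94, 1.10 and 2.11 in floxed and 3.14, 3.08 and 3.80 in H3atKO samples. That ratio was 3.88-fold higher in H3atKO samples (two-sided exact permutation *p* = 0.1, GC-corrected 3.2-fold). The log2 ratio of *Sucla2* to *Suclg2* per kb was 2.05, 1.54 and 1.93 in floxed and 3.62, 3.16 and 3.22 in H3atKO samples, 2.81-fold higher (two-sided exact permutation *p* = 0.1, GC-corrected 2.5-fold). *Sucla2* took 78% ± 3.22 of their counts per kb in floxed and 90.9% ± 1.37 in H3atKO samples (SD, n = 3).

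Fumarase hydrates fumarate to malate, and its gene serves both the mitochondrial and the cytosolic enzyme. *Fh1*, on chromosome 1 (175600374 to 175625635, reverse strand), had 72.5, 72.7 and 71.4 cpm in floxed samples, the narrowest spread of the 9 members, and 128, 143 and 76.9 cpm in H3atKO samples. H3atKO replicate 3 lay just above the floxed samples and the other two well above. The log2 fold change was 0.64 (SE 0.28, adjusted *p* = 0.121), 0.48 after the GC correction and -0.21 with library sizes alone. *Fh1* overlaps *Kmo* on the opposite strand. The last step belongs to mitochondrial malate dehydrogenase. *Mdh2*, on chromosome 5 (135778480 to 135790398, forward strand), had 229, 127 and 64.2 cpm in floxed and 95.8, 104 and 38.8 cpm in H3atKO samples. Its floxed samples differed 3.56-fold among themselves, the widest floxed spread of the members, and the genotypes overlapped. The log2 fold change was -0.74 (SE 0.55, adjusted *p* = 0.314) and -0.33 after the GC correction, and the replicate block called it down-regulated (adjusted *p* = 0.0381).

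**Figure D3:**
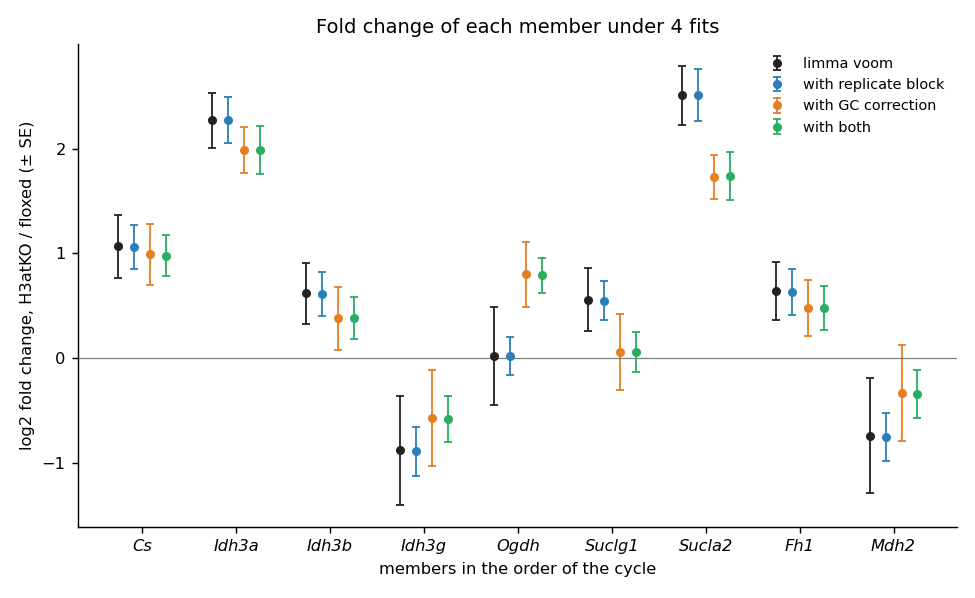
Log2 fold change of H3atKO over floxed samples for each member under limma voom (black), with the replicate number as a block (blue), with the GC correction (orange) and with both (green), with error bars for the SE. *Idh3a* and *Sucla2* stay above 1.5 in the 4 fits, *Idh3g* and *Mdh2* below 0, and *Ogdh* moves from 0.02 to 0.80 with the GC correction. With library sizes alone, which the plot leaves out, *Idh3b*, *Ogdh*, *Suclg1* and *Fh1* lie below 0.

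The number of members called differed between fits. With the replicate block 3 were called upregulated (*Cs*, *Idh3a*, *Sucla2*) and 2 down-regulated (*Idh3g*, *Mdh2*), beside 24.8% and 28.7% of all genes. With the GC correction *Idh3a* and *Sucla2* were called and none was called down-regulated, beside 5.46% and 3.20% of 14922 genes. With both, 4 were called upregulated (*Cs*, *Idh3a*, *Ogdh*, *Sucla2*) and 0 down-regulated, beside 12.9% and 9.84%. Sample quality weights called 6 upregulated and 0 down-regulated, beside 26.7% and 29.7%. Library sizes alone called 2 upregulated and 1 down-regulated (*Idh3g*), beside 2.04% and 37.9%.

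The members' GC contents ran from 43.2% in *Sucla2* to 52.5% in *Ogdh*. Over the 9 members Spearman's rho between GC content and log2 fold change was -0.7, and -0.4 after the correction, as a description of genes that share their libraries. Genes within 0.5 percentage points of a member's GC content gave its surroundings. For *Sucla2* the 641 such genes had a median log2 fold change of 0.78, against its own 2.51. For *Idh3a* the 821 such genes had a median of 0.29, against 2.27. *Ogdh*, at 0.02, stood among 759 genes with a median of -0.77. *Idh3g*, at -0.88, stood among 798 genes with a median of -0.23, and *Mdh2*, at -0.74, among 774 with -0.40.

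**Figure D4:**
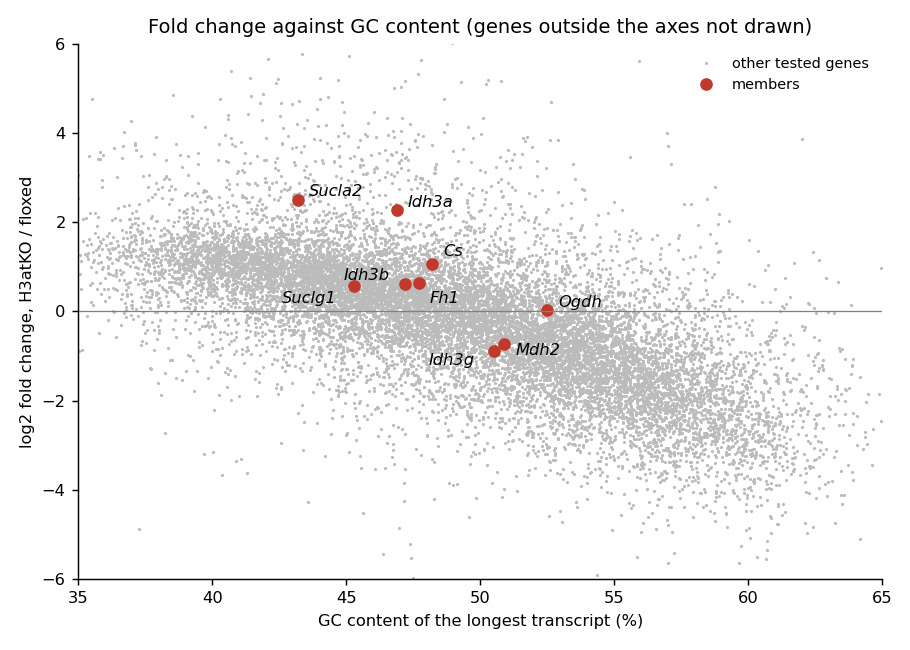
Log2 fold change of H3atKO over floxed samples against the GC content of the longest transcript, for the tested genes (grey) and the 9 members (red, labelled). Fold changes fall with GC content over all genes, and *Sucla2* and *Idh3a* lie above the genes around them, whereas *Idh3g* and *Mdh2* lie below the middle of theirs. Under library sizes alone *Idh3b*, *Ogdh*, *Suclg1* and *Fh1* would lie below 0.

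Levels of the members were compared with each other per kb of exon, as mean cpm per kb. They rest on the length of all annotated exons joined and were not corrected for GC content. In floxed samples the order was *Cs* (52), *Ogdh* (47.9), *Idh3g* (45.9), *Idh3b* (45.2), *Sucla2* (41), *Mdh2* (39.3), *Idh3a* (31.9), *Fh1* (21.3) and *Suclg1* (15.3). In that order only *Idh3a* and *Fh1*, and *Fh1* and *Suclg1*, are neighbours whose samples did not overlap. Compared within each sample, the other neighbours kept this order in only 1 or 2 of the 3 floxed samples. In H3atKO samples *Sucla2* came first (226 ± 19.6 cpm per kb, SD, n = 3), then *Idh3a* (157 ± 37.9), *Cs* (112), *Idh3b* (71.6), *Ogdh* (48.7), *Fh1* (34.2), *Idh3g* (26.8), *Suclg1* (23.1) and *Mdh2* (22.3). There only *Sucla2* and *Idh3a* are neighbours without overlap. Within samples, *Cs* was also above *Idh3b*, *Idh3b* above *Ogdh*, *Ogdh* above *Fh1* and *Fh1* above *Idh3g* in 3 of 3 H3atKO samples. The remaining neighbours kept their order in 1 or 2 of the 3. *Sucla2* moved from place 5 to place 1, *Idh3a* from 7 to 2 and *Mdh2* from 6 to 9.

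Of the partner genes *Dlst*, *Dld* and *Suclg2*, which complete the complexes of these steps, limma voom called 2 of 3 upregulated and 0 down-regulated (0 at an unadjusted *p* under 0.05, and 0 by edgeR and DESeq2). edgeR and DESeq2 each called 3 of 3 upregulated, *Suclg2* being the addition. Of all genes, limma voom called 9.42% upregulated and 7.07% down-regulated, edgeR 12.8% and 18.4%, and DESeq2 19.6% and 23.2%. The partners' median log2 fold change was 1.02, beside -0.09 over all tested genes, and 0.85 after the GC correction.

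Related enzymes outside the members formed a list of 6 (*Aco1*, *Idh1*, *Idh2*, *Mdh1*, *Ogdhl*, *Dhtkd1*). Limma voom called 1 of them upregulated and 0 down-regulated, beside 9.42% and 7.07% of all genes. At an unadjusted *p* under 0.05 by limma voom, 2 were positive and 1 negative. edgeR called 1 upregulated and 1 down-regulated, beside 12.8% and 18.4%, and DESeq2 called 2 and 1, beside 19.6% and 23.2%. With the replicate block 2 were called upregulated (*Idh1*, *Mdh1*) and 2 down-regulated (*Idh2*, *Dhtkd1*), beside 24.8% and 28.7% of all genes. *Idh1*, the cytosolic isocitrate dehydrogenase that makes NADPH, was at 88.9, 163 and 219 cpm in floxed and 352, 432 and 520 cpm in H3atKO samples (log2 fold change 1.55, SE 0.36, adjusted *p* = 0.036). The GC correction left it at 0.86 (adjusted *p* = 0.0621), and of the fits without 1 sample only that without floxed replicate 3 called it (adjusted *p* = 0.00833). *Idh2*, its mitochondrial NADPH-linked counterpart, had 116, 101 and 28.9 cpm in floxed and 16.3, 18.3 and 6.7 cpm in H3atKO samples, all below the floxed ones. Its log2 fold change of -2.43 (SE 0.69) missed the threshold in limma voom (adjusted *p* = 0.0512), was called by edgeR (adjusted *p* = 0.0264) and with the replicate block (adjusted *p* = 0.00288), and was -1.01 after the GC correction (adjusted *p* = 0.136). *Mdh1*, the cytosolic malate dehydrogenase, was at 304 ± 20.1 cpm in floxed and 476 ± 96.4 cpm in H3atKO samples (SD, n = 3, log2 fold change 0.63, SE 0.24, adjusted *p* = 0.0914, with the replicate block 0.0441), and its log2 fold change was -0.22 with library sizes alone.

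Some markers of other cell types differed between the genotypes too, in values not corrected for GC content. Of 6 tested brown adipocyte markers (of 7 listed) limma voom called 2 upregulated, *Elovl3* and *Dio2*, beside 9.42% of all genes. The replicate block called 5 upregulated and 0 down-regulated, beside 24.8% and 28.7%. *Elovl3*, an elongase of very long chain fatty acids, had 0.216 to 4.22 cpm in floxed and 172 to 722 cpm in H3atKO samples. *Dio2* activates thyroid hormone. Among the tested brown adipocyte markers without a call by limma voom alone, *Ucp1*, *Cidea* and *Ppargc1a* had positive log2 fold changes and *Cox7a1* a negative one (-0.28). *Ucp1* had an adjusted *p* of 0.353 by limma voom. Its H3atKO replicates 2 and 3 (1.33 and 11.5 cpm) lay within the floxed range (0.577 to 12.6 cpm). The 6 tested markers summed to 33.4 to 71.1 cpm in floxed and 321 to 1135 cpm in H3atKO samples. The H3atKO sums were made up mostly of *Elovl3*. Of 5 endothelial markers 3 were called down-regulated, with sums of 492 to 749 and 224 to 284 cpm, and of 5 stromal markers 2, with sums of 2035 to 4677 and 966 to 1557 cpm. Of 5 macrophage markers 1 was called down-regulated, with sums of 358 to 2060 and 327 to 581 cpm. These counts stand beside 7.07% of all genes called down-regulated. With the replicate block they were 4, 3 and 1, beside 28.7%. *Emcn* of the endothelial and *Mrc1* of the macrophage markers had positive log2 fold changes (0.12 and 0.35). The part of these cell types in the members' values was not tested.

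Skeletal muscle, which is rich in Krebs cycle enzymes, left markers in some pools. The 8 muscle markers summed to 1245, 686 and 3004 cpm in floxed and 434, 3750 and 3.03 cpm in H3atKO samples, and limma voom called none of them (4 had an unadjusted *p* under 0.05, edgeR and DESeq2 called 0). Among the H3atKO pools, 6 of the 9 members were highest in replicate 2, the pool with the highest muscle sum, and 8 of 9 were lowest in replicate 3, the pool with the lowest, where *Idh3a* was highest instead. Among the floxed pools, 7 of the 9 were lowest in replicate 3, the pool with the highest muscle sum. The part of muscle in the members' values was not tested. The 8 lymphocyte markers summed to 121, 6.76 and 5.74 cpm in floxed and 303, 8.92 and 382 cpm in H3atKO samples. Limma voom called none of these 8 (1 had an unadjusted *p* under 0.05) and edgeR 0. DESeq2 called 2 of them upregulated, beside 19.6% of all genes. The 6 adipocyte markers summed to 13362 to 27694 cpm in floxed and 15334 to 26482 cpm in H3atKO samples, a sum made up mostly of *Fabp4*. Limma voom called none of them (1 had a negative log2 fold change at an unadjusted *p* under 0.05, and edgeR called 0). DESeq2 and the replicate block each called 2 down-regulated, beside 23.2% and 28.7% of all genes. The log2 fold changes were 0.05 for *Fabp4* and -0.24 for *Adipoq*, and -1.22 for *Plin1*, -2.36 for *Lep*, -1.49 for *Cidec* and -1.57 for *Retn*. Of 5 listed epithelial markers the 2 tested summed to at most 4.36 cpm in any sample. Neither was called by limma voom, edgeR or DESeq2 or had an unadjusted *p* under 0.05.

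The genes most like the mean of the 9 members, over log2 cpm in the 6 samples and among 6344 genes with a mean of at least 4 log2 cpm, were *Ubap2l* (Pearson's r 0.9881), *Ndufb3* (0.9848), *Uhrf1bp1* (0.9834), *Bcl6* (0.9824) and *Acaa1b* (0.9803). *Ndufb3* encodes a subunit of respiratory complex I, *Bcl6* a transcriptional repressor and *Acaa1b* a peroxisomal thiolase. The correlations describe 6 points that share library and GC effects. The 5 genes had log2 fold changes from 0.26 to 2.19, with adjusted *p* from 0.0772 to 0.376.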

How the data were processed

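RNA from IngWAT was sequenced in 3 floxed and 3 H3atKO pools, and groups and replicate numbers were taken from the sample labels. The authors prepared stranded libraries of poly(A) RNA and, per the submitters' processing notes, used cutadapt 1.3, STAR 2.4.2a on GRCm38 and HTSeq 0.6.1. They deposited 1 file of raw gene counts per sample, not normalized. Tallies of reads given to no gene, 37.3% to 51.7% of all entries, were left out of library sizes and tests.

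Symbols, positions, exon lengths and GC content came from GENCODE M21, which matched 46005 of 46517 identifiers. Filter, scaling and test follow the study's methods: a gene had to reach 1 cpm in 1 or more samples, and the genotypes were compared on TMM-scaled counts with voom and limma 3.58.1 (edgeR 4.0.16, R 4.3.3), with two-sided Benjamini-Hochberg adjusted *p* over all 14967 genes, called under 0.05. Alternatives were edgeR's quasi-likelihood test, DESeq2 1.42.0, other scalings, filters and weights, a replicate block, a GC correction (robust loess, span 0.3, of each sample's deviations on GC content) and each sample left out in turn. The GC correction also removes any genotype effect that follows GC content. Limma voom alone, with the replicate block and with the GC correction, edgeR and DESeq2 were first checked on simulated data. The other alternatives were not. The simulated data held no effect of GC content or replicate, so they could not check how the fits handle these. Ratios within a sample were compared by exact permutation tests (SciPy 1.17.1).

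Deviations from the genotype means correlated between same-numbered samples (r of 0.510, 0.389 and 0.264 for replicates 1 to 3). The replicate number entered only the fits with a block, and the main fits and the ratio tests were unpaired. Differently numbered samples were not compared in this way, so whether the numbers pair the samples was not tested. Genes named are the 9 members, the listed genes of the pathway, *Hdac3*, cell type markers and the 5 genes most like the members' mean. Members and lists were chosen with earlier results of these data known. The labels do not say which mice entered which pool, so *p*-values measure the spread between these pools. PCR copies were not marked, and count floors cover counting error only. Some listed or overlapping genes are not reported here.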

Additional observations from a re-analysis of the deposited data

Results flagged for a closer look

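Alignments of reads with more than 1 place, which the counting gave to no gene and no comparison above uses, made up 29.4%, 28.3% and 35.2% of everything counted or tallied in the 3 floxed samples, against 43.8%, 44.9% and 45.5% in the 3 H3atKO samples. They drew attention because the H3atKO share, 44.7% ± 0.849, lay above that of the control samples, 31% ± 3.68 (SD, n = 3). A read can be tallied at each of its places, and its bearing on the members was not tested. Of the members, only *Suclg1* shares any 50-base stretch with other genes, at 0.442% of its stretches.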

How the results depend on the processing

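Of the alternatives for the 9 members' own log2 fold changes, 129 kept direction and side of the threshold, 13 passed it, 2 lost it and 9 changed sign. Members called upregulated numbered 6 with quality weights, 4 with the replicate block and GC correction together, and 0 to 2 with 1 sample left out. Members called down-regulated numbered 1 with library sizes alone and 2 with the replicate block. The block changed the calls of *Cs*, *Idh3g* and *Mdh2* given above and of no other member, and among the other listed genes those of *Suclg2*, *Idh2*, *Mdh1*, *Dhtkd1*, *Pcx*, *Got2*, *Glud1* and *Acly*. With library sizes alone the members' median was -0.23, and log2 fold changes turned to -0.23 in *Idh3b*, -0.83 in *Ogdh*, -0.30 in *Suclg1*, -0.21 in *Fh1*, -0.38 in *Aco1*, -0.22 in *Mdh1*, -0.04 in *Glud1*, -0.53 in *Slc25a1*, -0.64 in *Slc25a12* and -0.13 in *Slc25a13*. *Ogdh* was at -0.07 without a filter and -0.10 with at least 10 counts in every sample. With the GC correction *Pcx* turned to 0.52, *Slc25a10* to 1.19, *Slc25a11* to 0.84 and *Slc25a12* to -0.13, and with the block and GC correction *Pcx* to 0.53, *Got2* to 0.04, *Slc25a10* to 1.19, *Slc25a11* to 0.85 and *Slc25a12* to -0.07. With 1 sample left out, ranges crossed 0 in *Ogdh* (-0.35 to 0.44), *Slc25a1* (-0.17 to 0.93), *Slc25a11* (-0.45 to 0.01) and *Slc25a12* (-0.34 to 0.46). The cause was not tested. The 4 ratios within a sample kept their direction with the GC correction. The other alternatives for the ratios could not reverse it. The genotypes did not overlap, so leaving out 1 sample keeps the sign, the block leaves the mean difference as it is, and 1 added count is small beside the counts. With 3 pools per genotype the exact test cannot pass 0.05, and depth did not limit the members, whose lowest count was 440.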

Other observations

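Genes that feed the cycle or carry its intermediates across the inner membrane formed a list of 9, of which limma voom and edgeR called 0 in either direction (by limma voom 2 had a positive and 1 a negative log2 fold change at an unadjusted *p* under 0.05) and DESeq2 2 upregulated and 2 down-regulated. Of all genes, limma voom called 9.42% upregulated and 7.07% down-regulated, edgeR 12.8% and 18.4%, and DESeq2 19.6% and 23.2%. The replicate block called 2 of the list upregulated (*Acly*, *Glud1*) and 2 down-regulated (*Pcx*, *Got2*), beside 24.8% and 28.7% of all genes. The median log2 fold change of the list was 0.19, beside -0.09 over all tested genes. After the GC correction these medians were 0.75 and 0.02. With block and GC correction combined 4 of the list were called upregulated and 0 down-regulated, beside 12.9% and 9.84% of all genes. Of the 50-base stretches of *Got2*, 47.2% also occur in other genes, so that its counts are uncertain. *Acly*, which splits exported citrate into acetyl-CoA for fatty acid synthesis, had 107, 84.6 and 107 cpm in floxed and 155, 154 and 453 cpm in H3atKO samples, all above the floxed ones (log2 fold change 1.16, SE 0.43, adjusted *p* = 0.0853). The high value is that of H3atKO replicate 3, and the replicate block called the gene (adjusted *p* = 0.0281). The GC-corrected log2 fold change of *Acly* was 1.87 (adjusted *p* = 0.0728). *Slc25a1*, the citrate carrier, had 98, 74.1 and 73.6 cpm in floxed and 123, 191 and 43.4 cpm in H3atKO samples. Its log2 fold change was 0.32 (adjusted *p* = 0.638) and 2.50 after the GC correction (adjusted *p* = 0.0326), the GC content of its transcript being 59.1%.

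*Pcx*, pyruvate carboxylase, which refills oxaloacetate, had 603, 191 and 89.3 cpm in floxed and 96.8, 135 and 40.9 cpm in H3atKO samples. The floxed samples differed 6.76-fold among themselves, and the genotypes overlapped (log2 fold change -1.41, SE 0.72, adjusted *p* = 0.168, GC-corrected 0.52). Without floxed replicate 1, the highest sample, the log2 fold change was -0.68 (adjusted *p* = 0.41). The gene was called without floxed replicate 3 (adjusted *p* = 0.0357) and with the replicate block (adjusted *p* = 0.0332). *Glud1*, which makes alpha-ketoglutarate from glutamate, had 219, 226 and 317 cpm in floxed and 485, 334 and 523 cpm in H3atKO samples, without overlap (log2 fold change 0.81, SE 0.28, adjusted *p* = 0.0714). The replicate block called it (adjusted *p* = 0.0183), and so did the fit without floxed replicate 3 (adjusted *p* = 0.0279). The GC-corrected log2 fold change of *Glud1* was 0.75 (adjusted *p* = 0.0912).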
